A study of Mus musculus with 20 samples.

Results

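Nicotinic acetylcholine receptors depend on helper proteins, and the transcripts of 8 of these helpers are described here in mouse brain after lipopolysaccharide or nicotine. Members were taken by symbol: Tmem35a and Ric3 as the 2 assembly factors, and Lynx1, Lypd1, Lypd6, Lypd6b, Ly6h and Ly6e as the 6 modulators with a Ly6-type fold. They are 8 of 55487 genes in the prefrontal cortex table and 8 of 57180 in the hippocampal table. All 8 passed the filter on low counts in both tissues, among 17760 genes tested in cortex and 18873 in hippocampus.

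Nicotinic receptors are pentameric ion channels that must fold and assemble in the endoplasmic reticulum before they reach the cell surface. Assembly factors such as NACHO, the product of Tmem35a, and RIC3 help subunits form complete receptors, above all the receptor built from Chrna7 subunits. Ly6-type proteins, also called prototoxins because they share the fold of snake neurotoxins, are mostly tethered to the membrane by a lipid anchor and bind receptors or their precursors, and so tune how many receptors reach the surface and how they respond to acetylcholine.

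RNA sequencing of poly(A)-selected RNA was done in wild-type C57/BL6 mice of 2 to 6 months. Prefrontal cortex came from males 24 hours after intraperitoneal injection of LPS, a bacterial cell wall component that provokes systemic inflammation, given at 5 mg/kg to 4 animals, the other 4 having received 0.9% saline. Hippocampus came from mice 24 hours after nicotine, the plant alkaloid that activates these receptors, at 0.2 mg/kg (n = 6) or after saline (n = 6); the labels give neither sex nor route for these. Library totals were 39871000 to 42924749 counts with LPS and 36371084 to 46106526 with saline in cortex, and 53145736 to 62982229 with nicotine and 51969343 to 68196280 with saline in hippocampus. The 2 tissues were sequenced as separate batches with separate tables, so treatments were tested within a tissue only.

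The cortical labels conflict. Of 8 records, 4 had a title and treatment field at odds with the name of their own column in the count table. Groups follow the column: LPS Samples 2L, 4L, 5L and 7L, and saline Samples 1L, 3L, 6L and 8L. Titles gave the other treatment for 2L, 4L, 6L and 8L. Each title group thus held LPS and saline columns in equal number (2L and 4L with 1L and 3L, 5L and 7L with 6L and 8L). A difference between the column groups cancels in that grouping. Lcn2, an acute-phase gene, stood at 254 to 367 CPM, the TMM-scaled count, in LPS libraries and at 0.676 to 13.5 CPM in saline libraries under the columns. Each member's LPS change is therefore also given for the 4 libraries whose labels agree (LPS 5L and 7L, saline 1L and 3L). Grouped by title, 0 of 8 members passed, and edgeR called 0 genes with 201 at unadjusted p under 0.05. A gene passed the test where the adjusted p of edgeR's quasi-likelihood test over all genes was under 0.05. Marker genes of cortical excitatory neurons summed to 5626 to 6706 CPM with LPS and 4505 to 5792 with saline, while markers of the neighbouring striatum ran from 466 to 1963 CPM with LPS and from 363.5 to 1537 with saline. Markers of hippocampal granule and pyramidal cells summed to 975.5 to 1280 CPM with nicotine and 871 to 1214 with saline. The neuronal tubulin gene Tubb3 was listed at 0 in the cortical table, and the microglial integrin gene Itgam in both tables.

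The members lie on 5 chromosomes (mm10 coordinates, GENCODE vM21 gene models, all protein-coding). Tmem35a spans chromosome X 134295225 to 134305969 on the plus strand, with 2 exon blocks. Ric3 spans chromosome 7 109034312 to 109083331 and Lypd1 chromosome 1 125867622 to 125913101, both on the minus strand. Lypd6b (49787688 to 49948849) and Lypd6 (50066429 to 50193569) are neighbours on chromosome 2, both on the plus strand, with 117579 bases between them. Lynx1 (74747852 to 74753046, minus), Ly6e (74955051 to 74959905, plus) and Ly6h (75551268 to 75567255, minus) belong to a cluster of 17 located Ly6-family genes that spans 884.6 kb of chromosome 15.

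RefSeq promoter windows (build GRCm38.p6, 250 bases before to 50 after a start) were found for 3 of 8 members, Tmem35a, Lypd1 with 3 starts, and Lypd6. The 250 upstream bases are printed for Tmem35a, which fell with LPS, and Lypd6, which did not pass the test, since they stand at opposite ends of CpG density among these windows and their starts equal those of the gene models. Capitals mark CG dinucleotides. The Tmem35a stretch is chrX:134294975-134295224 and the Lypd6 stretch chr2:50066179-50066428, both on the plus strand.
Tmem35a: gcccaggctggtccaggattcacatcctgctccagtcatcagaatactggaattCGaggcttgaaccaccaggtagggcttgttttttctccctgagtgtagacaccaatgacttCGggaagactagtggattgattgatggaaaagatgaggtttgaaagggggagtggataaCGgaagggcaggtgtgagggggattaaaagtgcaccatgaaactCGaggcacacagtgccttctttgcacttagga
Lypd6: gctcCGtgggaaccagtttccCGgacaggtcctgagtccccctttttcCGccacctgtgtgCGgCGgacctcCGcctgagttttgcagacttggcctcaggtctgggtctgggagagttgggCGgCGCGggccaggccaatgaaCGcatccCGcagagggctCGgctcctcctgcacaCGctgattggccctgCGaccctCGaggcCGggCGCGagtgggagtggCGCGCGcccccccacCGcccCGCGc

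The Tmem35a stretch held 4 CG dinucleotides at 49.6% GC, and the Lypd6 stretch held 24 at 70.4% GC. Over all 32851 windows of 300 bases the median was 7 CG dinucleotides (quartiles 3 and 20) and 52.67% GC. The 3 Lypd1 windows held 9, 12 and 17. Of 7 motifs searched on both strands, the Tmem35a window held none: the interferon-stimulated response element (GAAA, 2 free bases, GAAA, in 3.44% of all windows), the interferon gamma-activated site (TTC, 3 free bases, GAA, 8.30%), the glucocorticoid response element (GNACA, 3 free bases, TGTNC, 0.475%), the NF-kB site (GGG, 5 free bases, CC, 50.8%), the cyclic AMP response element (TGACGTCA, 1.79%), the GC box (GGGCGG, 35.7%) and the TATA box (TATAAA, 13.6%). The Lypd6 window held GC boxes at bases -131 and -11 and an NF-kB match at -122 whose letters do not overlap them. Each Lypd1 window held a GC box, and the third also held 3 NF-kB matches, 2 of which overlap each other. These matches describe letters in the windows and were not tested as binding sites.

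Both assembly factors changed in prefrontal cortex after LPS, in opposite directions. Tmem35a encodes NACHO, a membrane protein of the endoplasmic reticulum that neuronal nicotinic receptors need for assembly. It stood at 35.8, 38.4, 42.2 and 47.0 CPM in LPS Samples 2L, 4L, 5L and 7L, against 63.3, 64.1, 70.8 and 63.4 CPM in saline Samples 1L, 3L, 6L and 8L. The groups did not overlap, and the highest LPS library lay well below the lowest saline library. The mean was 40.9 ± 4.86 CPM with LPS and 65.4 ± 3.62 CPM with saline (SD, n = 4 each). Tmem35a fell to 0.625 of the saline level, a log2 fold change of -0.68 (SE 0.091, 95% interval -0.88 to -0.48, edgeR adjusted p = 0.000202). In the 4 libraries whose labels agree it was -0.52 (edgeR adjusted p = 0.00571). Bulk libraries cannot tell fewer cells of a type from less RNA per cell.

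Ric3, a chaperone first found in the nematode Caenorhabditis elegans that promotes folding of Chrna7 receptors, rose. Its level was 92.1, 122, 133 and 124 CPM in the LPS libraries in the same order, against 77.9, 84.7, 75.3 and 77.8 CPM in the saline libraries. Every LPS library lay above every saline library, with Sample 2L the nearest. The means were 118 ± 17.6 CPM with LPS and 78.9 ± 4.05 CPM with saline, a fold of 1.49 and a log2 fold change of 0.58 (SE 0.10, 95% interval 0.35 to 0.80, edgeR adjusted p = 0.00117). With agreeing labels the value was 0.65 (edgeR adjusted p = 0.00231). Ric3 shares 149 exon bases, 1.7% of its exons, with Tub on the opposite strand, and the strand setting of the counting is not given in the sources used here. Tub, a neuronal transcription regulator, rose too, to 178 ± 22.4 CPM with LPS against 135 ± 14.3 CPM with saline (log2 fold change 0.40, edgeR adjusted p = 0.00926). The part of these shared bases in the Ric3 value was not tested.

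Since both genes come from the same libraries, their ratio does not depend on how libraries are scaled. The log2 ratio of Tmem35a to Ric3 counts was -1.36, -1.66, -1.65 and -1.40 in LPS Samples 2L, 4L, 5L and 7L, against -0.30, -0.40, -0.088 and -0.30 in saline Samples 1L, 3L, 6L and 8L. The groups were far apart on this measure. Their means were -1.52 ± 0.16 with LPS and -0.27 ± 0.13 with saline, a difference of -1.25. In an exact two-sided permutation test this gave p = 0.0286, the smallest p that 4 against 4 allows, and 0.114 after adjustment over the 16 ratios tested.

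**Figure D1:**
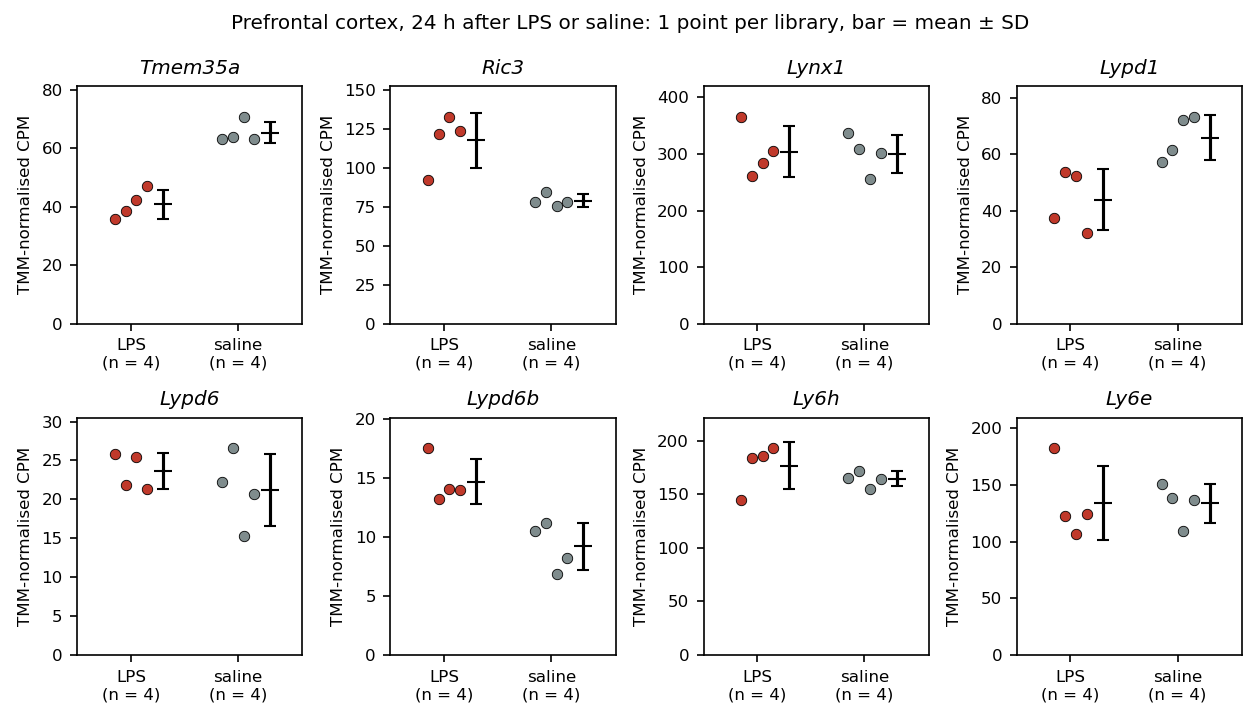
TMM-normalised CPM of the 8 genes in prefrontal cortex, with 1 point per library for LPS (left) and saline (right) and bars for mean ± SD (n = 4 each). Tmem35a and Lypd1 lie lower and Ric3 and Lypd6b higher with LPS with no overlap of the groups, while the points of the other 4 genes overlap.

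Among the Ly6-type modulators, 1 fell, 1 rose and 4 did not pass the test. Over all 8 members 2 were higher and 2 lower, 4 of 8, where 41.2% of all genes tested passed (21.5% higher, 19.7% lower). The same 4 were those whose groups did not overlap, and this held for 37.1% of all genes (19.2% higher, 17.9% lower). The share of members called thus lies near that of all genes. The summed level of the 8 members was 815.8 to 900.9 CPM with LPS and 760.9 to 884.5 CPM with saline, so the sums overlapped.

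Lypd1, also known as Lynx2, encodes an anchored protein that binds nicotinic receptors and whose loss in mice raises anxiety-like behaviour. It measured 37.5, 53.7, 52.5 and 32.2 CPM in LPS Samples 2L, 4L, 5L and 7L, against 57.2, 61.4, 72.1 and 73.3 CPM in saline Samples 1L, 3L, 6L and 8L. The LPS libraries fell into a lower pair (2L and 7L) and a higher pair, both below saline. Lypd1 fell, with means of 44.0 ± 10.7 CPM with LPS and 66.0 ± 7.95 CPM with saline, a fold of 0.666 and a log2 fold change of -0.59 (SE 0.16, 95% interval -0.93 to -0.25, edgeR adjusted p = 0.0108). In the 4 libraries with agreeing labels the change was -0.49 and did not pass (edgeR adjusted p = 0.0766). Lypd1 shares 1202 exon bases, 17.1% of its exons, with Gpr39 on the opposite strand. Gpr39 held 116 counts over the 8 cortical libraries, beside 18137 for Lypd1. The part of these shared bases in the Lypd1 value was not tested.

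Lypd6b, whose product modulates nicotinic receptors expressed in frog oocytes, rose. It stood at 17.5, 13.2, 14.1 and 14.0 CPM in the LPS libraries, against 10.5, 11.1, 6.89 and 8.25 CPM in the saline libraries. Sample 2L was the highest of the LPS libraries, and the lowest LPS value was above the highest saline value. Means were 14.7 ± 1.90 CPM with LPS and 9.19 ± 1.97 CPM with saline, a fold of 1.6 and a log2 fold change of 0.68 (SE 0.16, 95% interval 0.33 to 1.03, edgeR adjusted p = 0.00577). With agreeing labels the change was 0.36 and did not pass (edgeR adjusted p = 0.0749).

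Its neighbour Lypd6, reported to strengthen nicotinic calcium currents in mouse neurons, stood at 25.8, 21.9, 25.4 and 21.3 CPM with LPS, against 22.3, 26.5, 15.3 and 20.7 CPM with saline. The groups overlapped, and saline Sample 6L was the lowest of all. The log2 fold change was 0.16 (95% interval -0.17 to 0.48, edgeR adjusted p = 0.423), so that changes between 0.891-fold and 1.40-fold remain within the interval. With agreeing labels the value was -0.071 (edgeR adjusted p = 0.748). The log2 ratio of Lypd6 to Lypd6b was 0.561 to 0.856 with LPS and 1.08 to 1.32 with saline, with no overlap. Its means were 0.69 ± 0.13 with LPS and 1.20 ± 0.11 with saline, a difference of -0.51 (exact two-sided permutation p = 0.0286, adjusted 0.114).

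Lynx1, the founding prototoxin of mammals, dampens nicotinic receptors and restrains plasticity in adult mouse visual cortex. It measured 365.5, 261, 284 and 306 CPM in LPS Samples 2L, 4L, 5L and 7L, against 337, 308, 256 and 302 CPM in saline Samples 1L, 3L, 6L and 8L. The ranges lay on top of each other. The log2 fold change was 0.016 (SE 0.11, 95% interval -0.22 to 0.25, edgeR adjusted p = 0.918), which leaves folds of 0.858 to 1.19 within the interval. With agreeing labels it was -0.14 (edgeR adjusted p = 0.380). Slurp2, the gene 1158 bases from Lynx1, held 10 counts over the LPS libraries and 15 over the saline libraries.

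Ly6h, which lowers surface levels of Chrna7 receptors in mouse neurons, stood at 145, 184, 186 and 193 CPM with LPS, against 166, 172, 155 and 165 CPM with saline. LPS Sample 2L was the lowest of all 8 libraries, and the other 3 LPS libraries were above every saline library. The log2 fold change was 0.10 (SE 0.089, 95% interval -0.090 to 0.30, edgeR adjusted p = 0.375), and without Sample 2L it was 0.19 (edgeR adjusted p = 0.0304). With agreeing labels Ly6h stood at 0.15 (edgeR adjusted p = 0.288). Ly6e, best known as an interferon-inducible gene that limits entry of some viruses, stood at 182, 123, 107 and 125 CPM with LPS, against 151, 138, 109 and 136 CPM with saline. Its groups overlapped widely, with Sample 2L the highest of all. The log2 fold change of Ly6e was 0.0041 (SE 0.15, 95% interval -0.32 to 0.33, edgeR adjusted p = 0.986). It was -0.33 in the 4 libraries with agreeing labels (edgeR adjusted p = 0.0572).

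Sample 2L was the LPS library with the highest Lynx1, Lypd6, Lypd6b and Ly6e and the lowest Tmem35a, Ric3 and Ly6h. It also held the highest sum of endothelial markers, 318 CPM, with 252 to 269.6 CPM in the other LPS libraries and 191 to 235 CPM in saline libraries. That marker list includes Ly6a and Ly6c1. Genes of the Ly6 and urokinase receptor family outside the members, both of these included, summed to 151 CPM in Sample 2L. The other LPS libraries held 75.4 to 98.2 CPM of them, and saline libraries 48.95 to 77.9 CPM. The part of Ly6a and Ly6c1 in the endothelial sum was not tested. In Sample 2L the sum of inhibitory neuron markers was the lowest, 1506 CPM, with 1801 to 2306 CPM in the other LPS libraries and 2138 to 2795 CPM in saline libraries. Without Sample 2L, Tmem35a, Ric3, Lypd1 and Lypd6b all kept their calls.

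**Figure D2:**
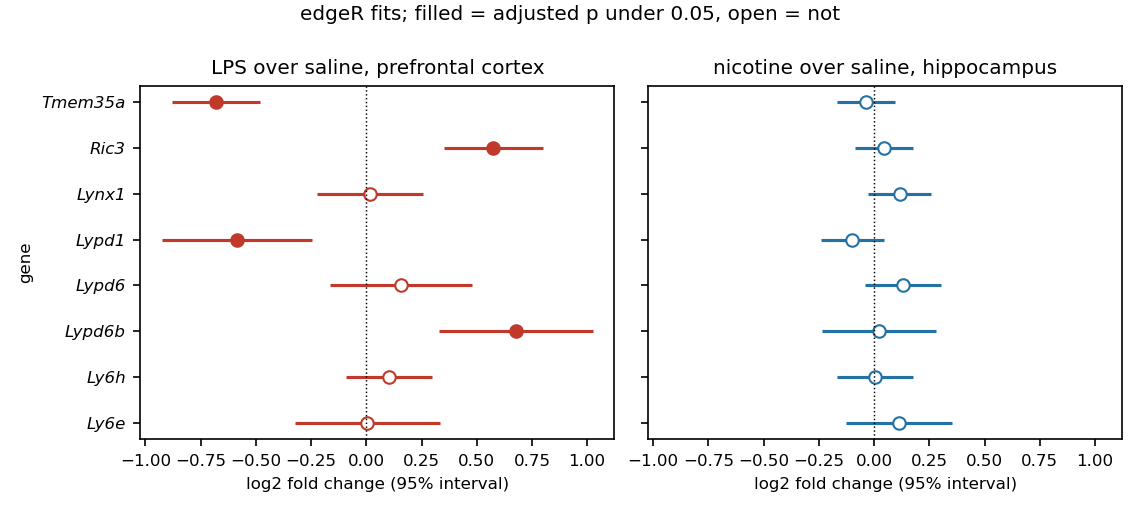
Log2 fold changes of the 8 genes from edgeR, for LPS over saline in prefrontal cortex (left) and nicotine over saline in hippocampus (right). Lines are 95% intervals computed from the F statistic, and filled points have an edgeR adjusted p under 0.05. The 4 filled points are Tmem35a at -0.68, Ric3 at 0.58, Lypd1 at -0.59 and Lypd6b at 0.68, all with LPS.

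Marker lists of other responses and cells differed in the share called, where 41.2% of all genes tested passed. Of 22 interferon-stimulated genes 20 rose, with a summed level of 358 to 414 CPM with LPS and 113 to 133 CPM with saline, while Ly6e stood at a log2 fold change of 0.0041. Of 13 endothelial markers, among them Ly6a and Ly6c1, 7 rose and 3 fell. Of 14 inhibitory neuron markers 2 rose and 4 fell, with sums of 1506 to 2306 CPM with LPS and 2138 to 2795 CPM with saline. Of 11 microglial markers 2 rose and 5 fell, of 10 oligodendrocyte markers 5 fell, and of 11 astrocyte markers 4 rose and 4 fell. Their sums were 460 to 573 CPM with LPS and 556.5 to 592 CPM with saline for microglia, 2684 to 3625 CPM with LPS and 3083 to 4047 CPM with saline for oligodendrocytes, and 4144 to 5042 CPM with LPS and 4237 to 4498 CPM with saline for astrocytes. Of 12 excitatory neuron markers 2 rose and 2 fell, and of 11 general neuron markers 1 rose and 2 fell, with sums of 10170 to 11140 CPM with LPS and 9348 to 10630 CPM with saline. Beside a median log2 fold change of 0.0092 over all genes tested, the median was 1.63 for the interferon list, 0.39 for the endothelial, -0.23 for the inhibitory, -0.51 for the microglial, -0.38 for the oligodendrocyte, 0.17 for the astrocyte, 0.081 for the excitatory and -0.048 for the general neuron list. Of 10 striatal markers 0 were called, at a median of 0.50. Of 10 leukocyte markers 4 passed the filter on low counts, and 2 of these rose, at a median of 1.36. A low gene can pass that filter through the group where it is high, so this median does not stand for the whole list. Leukocyte markers summed to 5.12 to 11.1 CPM with LPS and 2.10 to 4.82 CPM with saline. Medians were 0.24 for choroid plexus markers and -0.23 for hippocampal granule and pyramidal cell markers. What part of the members' changes goes with these shifts was not tested.

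Of 16 nicotinic receptor subunit genes 11 were tested, and 1 rose and 2 fell, where 41.2% of all genes tested passed. With so few genes, many of them at low counts, a difference between these shares was not tested. Chrnb4 (log2 fold change -0.80, edgeR adjusted p = 0.0575) and Chrna2 (-0.70, edgeR adjusted p = 0.0614) lay just past the threshold. The median log2 fold change of these subunits was -0.23 beside 0.0092 over all genes. Chrnb2, the beta subunit of the main high-affinity brain receptor, rose to 82.7 ± 5.39 CPM with LPS against 67.2 ± 4.11 CPM with saline (log2 fold change 0.30, edgeR adjusted p = 0.00734). Chrna3, an alpha subunit best known from autonomic ganglia, fell to 1.597 ± 0.584 CPM with LPS against 3.65 ± 0.862 CPM with saline (-1.20, edgeR adjusted p = 0.00542), a call lost with agreeing labels (-0.82, edgeR adjusted p = 0.0590). Chrnb3, an accessory subunit, fell to 0.577 ± 0.246 CPM with LPS against 1.152 ± 0.4661 CPM with saline (-0.99, edgeR adjusted p = 0.0482). The call of Chrnb3 was lost without any 1 of Samples 1L, 3L, 4L, 5L, 7L or 8L, where its log2 fold change ran from -1.32 to -0.69 over all 8 single omissions. Chrna7, the subunit with which NACHO and RIC3 are most often linked, stood at 9.29 ± 0.400 CPM with LPS and 8.75 ± 1.64 CPM with saline (0.086, 95% interval -0.23 to 0.40). Chrna4, the partner of Chrnb2, stood at 45.2 ± 3.13 CPM with LPS and 50.9 ± 10.7 CPM with saline (-0.17, 95% interval -0.46 to 0.12).

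Relative to Chrna7 and Chrna4, Tmem35a was lower in every LPS library than in any saline library. The log2 ratio of Tmem35a to Chrna7 was 1.91 to 2.35 with LPS and 2.64 to 3.29 with saline, a difference of -0.79. Its ratio to Chrna4 was -0.35 to 0.0055 with LPS and 0.069 to 0.93 with saline, a difference of -0.54. Neither pair of ranges overlapped, and both had an exact two-sided permutation p of 0.0286, adjusted to 0.114. Ric3 to Chrna7 differed by 0.46 with overlapping ranges (exact permutation p = 0.0857, adjusted 0.229). Ratios of Lynx1 to Chrna7, Chrna4 and Chrnb2 differed by -0.094, 0.16 and -0.29 (exact permutation p = 0.657, 0.429 and 0.143). Of 16 ratios over both tissues, 0 passed after adjustment. This outcome was fixed for cortex alone, since all 8 cortical ratios at the smallest p would give an adjusted p of 0.0571.

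**Figure D3:**
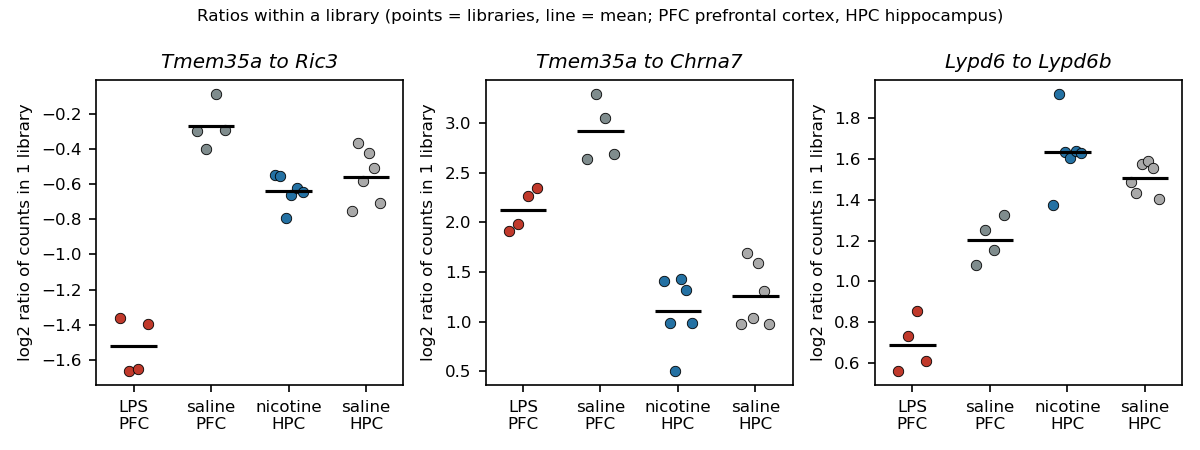
Log2 ratios of counts within single libraries for Tmem35a to Ric3, Tmem35a to Chrna7 and Lypd6 to Lypd6b, with 1 point per library and a line for each group mean (LPS, saline in prefrontal cortex, PFC; nicotine, saline in hippocampus, HPC). In prefrontal cortex the LPS points lie below the saline points in all 3 panels, while in hippocampus the groups overlap. The panels were picked from the 8 ratios per tissue among those without overlap in cortex. Ratios with overlap there, Ric3 to Chrna7 and Lynx1 to its subunits, are not shown. Tmem35a is the numerator in both the first and the second panel.

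Of 22 other genes of receptor assembly 5 rose and 4 fell, a share near the 41.2% of all genes tested, with a median log2 fold change of -0.042. Those that fell were Bcl2, a survival factor (-0.86, 18.7 ± 1.62 CPM with LPS and 33.8 ± 4.20 CPM with saline), the endoplasmic reticulum chaperone genes Calr (-0.71) and Hspa5 (-0.53), and Tmem35b, the paralogue of Tmem35a (-0.80). The genes that rose were Ubqln1, which encodes the proteasome shuttle ubiquilin (0.29), Ncln (0.36), Lamp5 (0.38), the calcium sensor gene Vsnl1 (0.29) and Mcl1 (0.25). Several of these calls were lost when a single library was left out, by edgeR adjusted p. With all libraries that p was 0.0393 for Tmem35b, 0.0459 for Mcl1, 0.0340 for Vsnl1 and 0.0163 for Lamp5. The calls of Tmem35b and Mcl1 were lost without any 1 of Samples 1L, 3L, 4L, 5L, 7L or 8L, that of Vsnl1 without 2L, 3L, 4L, 5L, 6L or 7L, and that of Lamp5 without 3L or 6L. Over single omissions their log2 fold changes ran from -1.07 to -0.64 for Tmem35b, 0.20 to 0.33 for Mcl1, 0.18 to 0.34 for Vsnl1 and 0.25 to 0.43 for Lamp5. Hspa5 kept its call over single omissions, at -0.64 to -0.33, with an edgeR adjusted p of at most 0.0429, and its smallest change was that without saline Sample 6L. With agreeing labels Tmem35b, Vsnl1 and Lamp5 did not pass. Among the other settings, Tmem35b, Vsnl1 and Mcl1 did not pass with the replicate block, nor Vsnl1 and Mcl1 with library totals only.

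Of 39 other genes of the Ly6 and urokinase receptor family, 10 passed the filter on low counts in cortex and 9 were listed at 0. Of the 10 tested, 5 rose and 2 fell, where 41.2% of all genes tested passed, and their median log2 fold change was 0.78. The filter took the groups into account, so a gene with few counts can enter through the group where it is high. Psca and Ly6g6d (27 counts with LPS and 78 with saline) are such low genes. This share and median therefore do not measure a response of the family. Plaur, the urokinase receptor gene, rose to 12.9 ± 4.30 CPM with LPS against 1.11 ± 0.267 CPM with saline (3.53, edgeR adjusted p = 6.68e-06). Ly6g6e fell to 4.15 ± 1.57 CPM with LPS against 9.49 ± 1.07 CPM with saline (-1.19), and Ly6g6d, at under 1 CPM, fell as well (-1.47). Psca (3.01, 82 counts with LPS and 10 with saline), Ly6a (1.17), Pate2 (1.00) and Ly6c1 (0.82) rose. The last 3 lost their calls without single libraries: Ly6a without 1L, 3L or 6L (0.76 to 1.53 over single omissions), Pate2 without 1L, 3L, 4L, 6L or 7L (0.78 to 1.17) and Ly6c1 without 1L, 2L, 3L, 4L or 6L (0.42 to 1.04). Ly6a and Ly6c1 are endothelial markers with close relatives in the chromosome 15 cluster, whose reads the counting could have split. Psca, Ly6a and Ly6c1 lie in the same cluster as Lynx1, Ly6e and Ly6h, whose own changes did not pass. With agreeing labels Ly6g6d (-1.25) and Pate2 lost their calls.

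In hippocampus 24 hours after nicotine, 0 of 8 members passed the edgeR test, where 0% of 18873 genes passed. DESeq2 and limma-voom also called 0 of 8 members, and 0 of 8 had an unadjusted edgeR p under 0.05, which 8.36% of all genes did. In every member the groups overlapped, while 0.387% of all genes had groups that did not. Intervals were narrower here than in cortex, so the data bound the size of any change.

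Tmem35a stood at 45.9 to 54.9 CPM with nicotine (median 50.3) and 46.6 to 59.6 CPM with saline (median 51.3), with a log2 fold change of -0.035 (95% interval -0.17 to 0.096, edgeR adjusted p = 0.890). Ric3 ran from 74.8 to 87.1 CPM with nicotine (median 77.7) and from 64.2 to 82.4 CPM with saline (median 78.4), with a log2 fold change of 0.045 (95% interval -0.088 to 0.18, edgeR adjusted p = 0.853). The intervals cover folds of 0.891 to 1.07 for Tmem35a and 0.941 to 1.13 for Ric3. The log2 ratio of Tmem35a to Ric3 was -0.79 to -0.55 with nicotine and -0.76 to -0.37 with saline (difference -0.081, exact two-sided permutation p = 0.292, adjusted 0.468).

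Lynx1 ran from 308 to 359.7 CPM with nicotine (median 326) and from 261.5 to 335 CPM with saline (median 303), with a log2 fold change of 0.12 (95% interval -0.026 to 0.26, edgeR adjusted p = 0.640). Lypd1 stood at 93.9 to 110.5 CPM with nicotine (median 102) and 95.2 to 127 CPM with saline (median 108), a log2 fold change of -0.098 (95% interval -0.24 to 0.043, edgeR adjusted p = 0.689). The groups overlapped for both genes, with the nicotine libraries of Lynx1 in the upper part of the saline range and above it. Lypd6 ran from 18.3 to 26.2 CPM with nicotine (median 21.2) and from 17.8 to 20.8 CPM with saline (median 20.1), a log2 fold change of 0.13 (95% interval -0.040 to 0.30, edgeR adjusted p = 0.663). Lypd6b, the lowest member, ran from 5.89 to 10.1 CPM with nicotine (median 6.48) and from 6.40 to 7.36 CPM with saline (median 6.99), a log2 fold change of 0.022 (95% interval -0.23 to 0.28, edgeR adjusted p = 0.973). One nicotine library, 7N, set the top of the Lypd6b range.

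Ly6h ran from 149 to 189 CPM with nicotine (median 171) and from 149.0 to 200 CPM with saline (median 168), a log2 fold change of 0.0038 (95% interval -0.17 to 0.17, edgeR adjusted p = 0.994). Ly6e ran from 169.7 to 262 CPM with nicotine (median 177) and from 149 to 199.7 CPM with saline (median 191.5), a log2 fold change of 0.11 (95% interval -0.13 to 0.35, edgeR adjusted p = 0.784). The Ly6e groups show how far single libraries reach, since the median was lower and the top higher with nicotine. Saline library 2N was the lowest of the saline libraries for Ly6e, Ly6h, Lynx1 and Ric3, and it had the lowest sum of general neuron markers (7467 CPM) and the highest sum of oligodendrocyte markers (8219 CPM) of all 12. The part of this makeup in the members' levels was not tested. Choroid plexus tissue also differed between libraries, with Ttr at 31.3 to 2167 CPM with nicotine and 15.3 to 3682 CPM with saline.

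**Figure D4:**
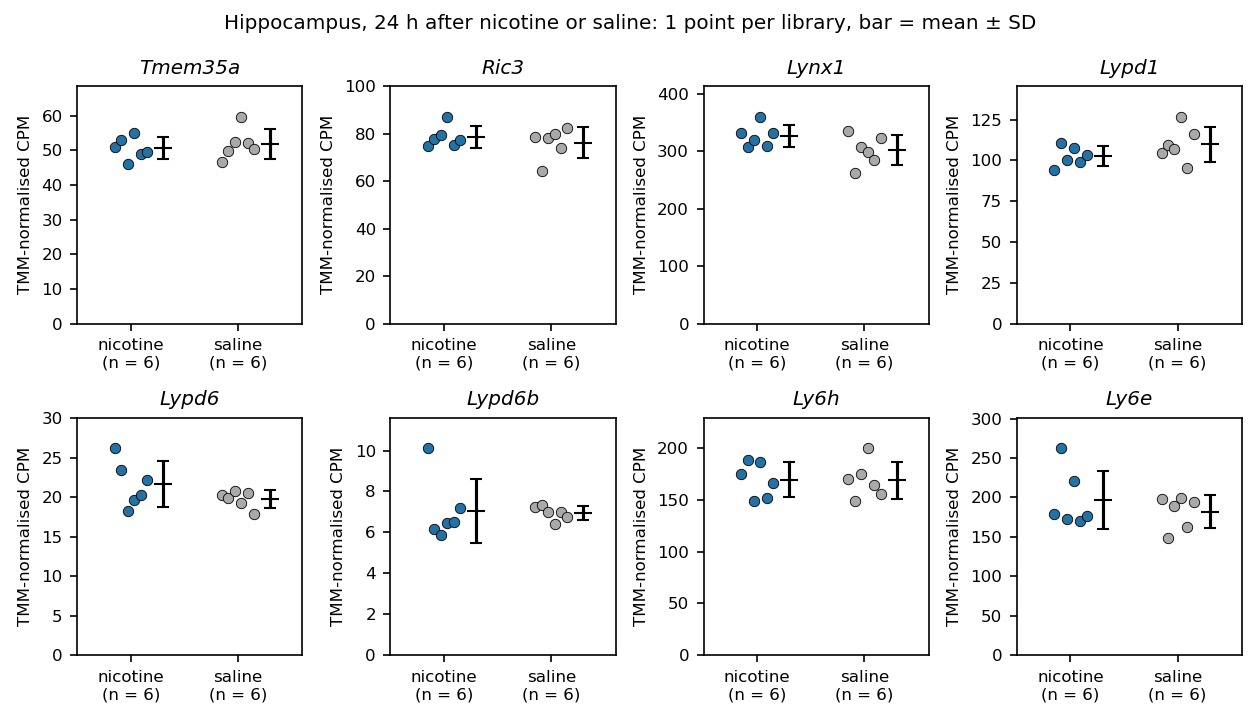
TMM-normalised CPM of the 8 genes in hippocampus, with 1 point per library for nicotine (left) and saline (right) and bars for mean ± SD (n = 6 each). The groups overlap in all 8 panels, and the single high Lypd6b point with nicotine is library 7N at 10.1 CPM.

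The genes around the members gave no call after nicotine either. Of 11 subunit genes, 22 other assembly genes and 9 other family genes tested, 0 passed by edgeR, DESeq2 or limma-voom, and 3 had an unadjusted edgeR p under 0.05 (Chrna4, Vsnl1 and Hspa5). Over all genes tested, 0% passed by edgeR and 8.36% had an unadjusted edgeR p under 0.05. Chrna4 stood at 34.1 ± 6.26 CPM with nicotine and 25.9 ± 6.80 CPM with saline (log2 fold change 0.40, edgeR adjusted p = 0.556). The log2 ratio of Tmem35a to Chrna4 accordingly differed by -0.45 (0.17 to 0.97 with nicotine and 0.46 to 1.55 with saline, exact two-sided permutation p = 0.0390, adjusted 0.125). Vsnl1 (0.22) and Hspa5 (-0.28), both at an edgeR adjusted p of 0.555, had the smallest p of the assembly list. Chrnb4 (-0.69, and 0.044 without saline library 5N), Plaur (0.36) and Ly6c1 (0.15) completed the genes with the smallest p of their lists, with edgeR adjusted p of 0.730, 0.700 and 0.725.

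Levels of different members can be compared only per length, here as CPM per kilobase of merged exons. In cortex Lynx1 led with 65.2 ± 9.62 CPM per kilobase with LPS and 64.5 ± 7.19 with saline, followed by Ly6h (41.8 and 38.9) and Ly6e (35.5 and 35.4). Tmem35a came next, at 21.3 ± 2.53 CPM per kilobase with LPS and 34.1 ± 1.89 with saline. Its saline range overlapped that of Ly6e, while its LPS range did not. Ric3 reached 13.7 CPM per kilobase with LPS and 9.22 with saline, and Lypd1 6.25 and 9.37. By this length Lypd1 and Ric3 thus changed places in the order between the groups. Lypd6 stood at 6.33 CPM per kilobase with LPS and 5.69 with saline, and Lypd6b was the lowest in both groups (5.64 and 3.53). The ranges of Lypd6, Lypd1 and Lypd6b overlapped in turn with LPS, those of Lypd1 and Ric3 and those of Lypd6 and Lypd6b with saline, and those of Ly6h and Ly6e in both groups.

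In hippocampus the order was the same with nicotine and with saline. Lynx1 stood at 70.2 ± 4.12 CPM per kilobase with nicotine and 64.7 ± 5.66 with saline, Ly6e at 52.0 and 48.1, Ly6h at 40.2 and 40.1 and Tmem35a at 26.4 and 27.0. Lypd1 followed at 14.6 and 15.6 CPM per kilobase, Ric3 at 9.19 and 8.91, Lypd6 at 5.81 and 5.30 and Lypd6b at 2.71 and 2.67. Lynx1 and Ly6e overlapped with nicotine, and Ly6e and Ly6h overlapped with saline, while the other neighbours in the order did not. With the longest transcript as the length, Ly6e stood above Lynx1 in hippocampus, at 86.2 against 81.3 CPM per kilobase with nicotine and 79.7 against 75.02 with saline. In cortex that length put Ric3 above Tmem35a and Lypd1 above Lypd6 with LPS, and Ric3 above Lypd1 with saline. The top gene of the hippocampal order thus rests on the choice of length, as does the cortical change of places between Lypd1 and Ric3. Tissue, sequencing batch and table coincide, so the higher Lypd1 and Ly6e levels in hippocampus cannot be told apart from those differences and were not tested.

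**Figure D5:**
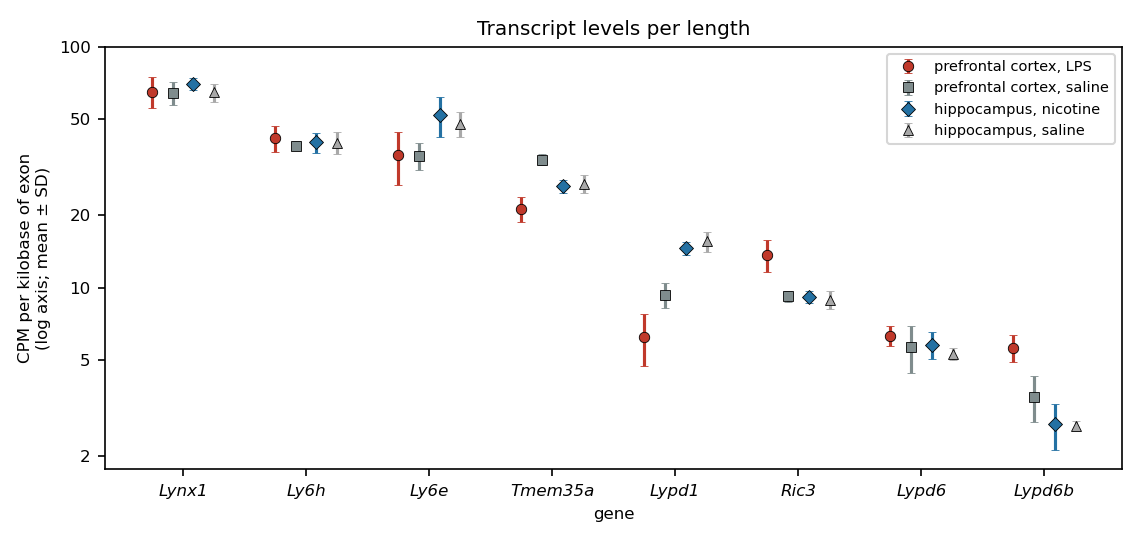
Mean ± SD of CPM per kilobase of merged exons on a log axis for the 8 genes in LPS and saline prefrontal cortex (n = 4 each) and nicotine and saline hippocampus (n = 6 each), normalised separately in each tissue. Lynx1 stands at 64.5 to 70.2 in all 4 groups, and Lypd6b at 2.67 to 5.64.

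For each member the 3 genes with the most similar profile were taken by Pearson correlation of log2 CPM over the 20 libraries, after centring in each tissue, among 16618 genes. These values describe shared variation over the same libraries, the LPS libraries included, and its sources were not separated. Tmem35a was closest to Csdc2 (r = 0.952), Aig1 (0.946) and Hexa (0.945), which also fell with LPS, at -1.10, -0.54 and -0.90 on the log2 scale. Within hippocampus alone these correlations were 0.622, 0.683 and 0.677. Ric3 was closest to Hspa9 (r = 0.961), Cul3 (0.960) and Gorasp2 (0.954), which rose with LPS by 0.48, 0.38 and 0.42, and Hspa9 kept an r of 0.943 within hippocampus. Lypd6b was closest to Vamp1 (0.921), Eml2 (0.885) and Tpd52 (0.883), and Lypd1 to Kctd12 (0.887), Gm15998 (0.853) and Ptprz1 (0.833).

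The members without an LPS call had lower top correlations on the whole. Profiles were centred by tissue and not by treatment, so an LPS shift shared by a pair of genes enters its r. Lypd6 was closest to Gm7160 (r = 0.886), Hdac3 (0.875) and Wwox (0.874), and Ly6e to Tceal5 (0.838), Rpusd1 (0.829) and Gm20163 (0.828). Lynx1 was closest to Cabp1 (0.830), Klc2 (0.783) and Ppfia3 (0.779), with 0.898 for Cabp1, a neuronal calcium-binding protein gene, in hippocampus alone. Ly6h was closest to Zwint (0.812), Klf14 (0.801) and Gm10327 (0.792).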

How the data were processed

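The authors deposited unnormalized read counts of every gene, in 1 table per tissue. The submitters' processing notes name build mm10 and the tools fastp, STAR, featureCounts and DESeq2, with no version or role. Which annotation and strand mode were used is not given in the sources used here. The 8 members and 15 gene lists were chosen with earlier results of these data known. Cortical libraries were grouped by count-table column. Of the hippocampal identifiers 51884 matched GENCODE vM21, and the 5296 others held 1.14% of counts. The cortical table repeated 120 symbols.

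The 2 tissues were fitted separately, with edgeR 4.0.16 under R 4.3.3 (TMM factors, filterByExpr, quasi-likelihood F-test, Benjamini-Hochberg adjustment over all genes tested, threshold 0.05). Levels are TMM-normalised CPM. DESeq2 1.42.0, limma-voom (limma 3.58.1), other scaling factors, other filters, single omissions, a replicate block, marker covariates and other groupings were alternatives. Ratios are log2 of counts plus 0.5, compared by exact two-sided permutation over all assignments of libraries, adjusted over 16 ratios.

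Named genes were the members, up to 4 genes per direction with the smallest p in each of 3 related lists (2 where none passed; counts of 5 or fewer were named in full), and the 3 most correlated genes per member. Separate libraries are separate animals only as far as the labels say, so p-values measure the spread between libraries. No 2 libraries of a group agreed within sampling noise (lowest chi-square per degree of freedom 11.0). The edgeR fit was tested on simulated counts, and the permutation test and motif search on small cases with known answers.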

Additional observations from a re-analysis of the deposited data

Results flagged for a closer look

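Library values of the 8 genes and of their ratios were checked in 64 groups for a sample far from the others, by Dixon's criterion at 95%, which chance meets in about 1 of 20 groups. In saline cortex, Sample 6L held 70.8 CPM of Tmem35a, with 63.3 to 64.1 CPM in the other 3 saline libraries, a gap of 0.901 of the range beside a critical value of 0.829. In nicotine hippocampus, library 7N held 10.1 CPM of Lypd6b, with 5.89 to 7.19 CPM in the other 5 nicotine libraries, a gap of 0.693 beside 0.625.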

How the results depend on the processing

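The LPS results rest on the grouping of libraries. With groups by title, edgeR called 0 genes higher and 0 lower (201 at unadjusted p under 0.05), 0 members and 0 genes of the 3 related lists in either direction. Each title group held LPS and saline columns in equal number, so a difference between the column groups cancels there and signs are not informative. Without a call, the sign was opposite for Tmem35a (0.15), Lypd1 (0.13), Lypd6b (-0.28), Chrna3 (0.38), Calr (0.090), Hspa5 (0.20), Bcl2 (0.074), Ly6g6d (0.18), Ly6g6e (0.16), Vsnl1 (-0.092), Lamp5 (-0.13), Ly6a (-0.49) and Ly6c1 (-0.45). In the 4 libraries with agreeing labels 1 member was called higher and 1 lower, with 2826 genes higher and 2864 lower. Under the other alternatives each of the 4 called members kept its call, and over 8 single omissions their log2 fold changes ran from -0.76 to -0.62 for Tmem35a, 0.51 to 0.68 for Ric3, -0.70 to -0.47 for Lypd1 and 0.55 to 0.77 for Lypd6b. Counts of genes ran from 2878 to 4327 higher and 2825 to 4154 lower over the same omissions.

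Counts in the related lists moved more. Subunits called lower numbered 4 with DESeq2 and with library totals only, 1 with upper-quartile factors, a filter at 1 CPM, the replicate block or agreeing labels, and 1 to 3 over single omissions. Assembly genes called higher numbered 3 with library totals only, the replicate block or agreeing labels, and 2 to 4 over single omissions, while 7 were called lower with library totals only. Other family genes called higher numbered 3 with a filter at 1 CPM, which leaves fewer genes tested, or the replicate block, and 3 to 6 over single omissions, and 1 was called lower with that filter.

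After nicotine DESeq2 called 8 genes higher and 8 lower, with 5121 adjusted p missing, and limma-voom 0. Without nicotine library 11N, or without the 4 libraries above 1000 CPM of Ttr, edgeR called 1 gene lower (0 to 1 over single omissions), and no member was called under any alternative run. Replicate numbers did not pair the libraries: same-numbered deviations correlated at -0.15 to -0.025 in cortex and -0.16 to 0.42 in hippocampus, and 1 of 6 hippocampal libraries correlated best with its own number. With the block edgeR called 3144 genes higher and 2920 lower in cortex and 0 in hippocampus. Over single omissions 0 ratios passed after adjustment. For cortex alone this outcome was again fixed, since dropping a library does not lower the smallest p that the permutation test allows. Causes were not tested.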
